A study of Mus musculus with 12 samples.

Results

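A list of 60 nucleolar and ribosome assembly genes was followed in responding CD4+ T cells after blockade of the PD-1 and Lag3 pathways. Members were chosen by gene symbol, with earlier results of these data known. The study names Gnl3 and Wdr43 among the genes raised by co-blockade. Each member had to have at least 30 reads summed over the 12 samples. All 60 passed, out of 15138 genes that passed the same filter and 56691 mouse genes in the count table. By known role, 28 act mainly on the small ribosomal subunit, 22 mainly on the large subunit, 2 are subunits of RNA polymerase I (Polr1a and Polr1b), and 8 have several or other roles (Ncl, Npm1, Ddx21, Rrp12, Nol8, Mybbp1a, Gpatch4 and Nsun2).

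Ribosomes are built in the nucleolus. RNA polymerase I transcribes the precursor of the 18S, 5.8S and 28S ribosomal RNAs, and a large cohort of helicases, GTPases, methyltransferases and scaffold proteins folds, cleaves and modifies this precursor while the ribosomal proteins join it. Small-subunit factors form the processome on the growing transcript, large-subunit factors carry the remaining part through the nucleolus and nucleoplasm, and both sets leave before the subunits are used for translation. T cells that leave quiescence after antigen recognition enlarge their nucleoli and raise ribosome output before they divide.

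The 12 samples were 1 mouse each, 3 per treatment, of the line Tg4 Nr4a3-Tocky Il10-GFP. Tg4 mice carry a transgenic T cell receptor for a peptide of myelin basic protein (MBP), the Tocky transgene reports Nr4a3 transcription through a Timer protein that matures from blue to red, and Il10-GFP reports Il10. All mice, controls included, received 4 mg/kg of [4Y]-MBP peptide under the skin, an intraperitoneal antibody 24 h later, and 0.4 mg/kg of the peptide again 30 min after the antibody. The isotype group was given a pool of rat IgG1 and rat IgG2a, the anti-PD-L1 group clone MIH5 and the anti-Lag3 group clone C9B7W. The co-blockade group (CB) was given both blocking antibodies pooled at equal parts. A dose of 0.5 mg is listed for all groups. Whether it is the total of a pool or the dose of each antibody in it is not given in the sources used here. Spleens were taken 12 h after the second peptide, and CD4+ cells positive for Timer Blue and Timer Red (responders) were sorted. Transcripts that mark other cell types were also present in the libraries, as given below. Mice were young adults of both sexes per the study's methods, and the labels give neither the sex nor the litter of a sample. The cells were sorted in pooled batches with a different CD4 fluorochrome for each treatment, so fluorochrome and treatment cannot be told apart.

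Libraries were 3′ mRNA libraries with between 16449370 and 22151025 reads on genes (median 19176439). Values are CPM, read counts scaled to a common library size with TMM factors, and a fold change is the log2 difference between groups from 1 edgeR quasi-likelihood fit with its standard error (SE) on that scale. A gene is said to have risen, fallen or passed where its Benjamini-Hochberg adjusted p over all 15138 genes was under 0.05. CD4 T cell markers were at 3540 to 3712 CPM in sum in the isotype samples and 3120 to 3240 CPM with CB, and 2 of these 8 genes fell with CB (Cd4 by 0.50 and Cd3e by 0.39 on the log2 scale). The 7 erythroid and platelet markers summed to 241 to 449 CPM with isotype and 150 to 198 CPM with CB, with isotype 1 the highest, and 2 of them (Hbb-bs and Hbb-bt) fell. The 8 myeloid markers summed to 6.67 to 12.6 CPM with isotype, 6.34 to 11.9 with anti-Lag3, 14.5 to 24.5 with anti-PD-L1 and 5.76 to 11.9 with CB, and Adgre1 and S100a9 were at 0 in all 3 CB samples. The 6 B cell markers, mostly Ighm, summed to 367 to 432 CPM with isotype and 328 to 409 CPM with CB, and the 5 CD8 T cell and NK cell markers, mostly Cd8b1, to 45.3 to 48.8 CPM with isotype, 35.5 to 50.2 with anti-Lag3, 29.9 to 32.0 with anti-PD-L1 and 28.7 to 37.9 with CB. The part of these marker differences in the results below was not tested.

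The first question was whether blocking both pathways together altered ribosome assembly genes relative to isotype. The fold change was above 0 for 60 of 60 members, and 36 rose with CB while 0 fell. Among all genes tested 2.33% rose in this comparison. Among the 9328 genes with at least as many reads as the member with the fewest reads (Dimt1, 762 reads) 3.73% rose. Because the list was chosen with earlier results of these data known, these shares are not an independent comparison. The median log2 fold change of the members was 0.68 (from 0.08 to 1.38), against 0.00 for all genes tested. In 52 of 60 members every CB sample lay above every isotype sample, which held for 10.4% of all genes. In these bulk libraries, more transcript per cell and more cells that carry the transcript cannot be told apart. The count of members that rose was 23 without isotype 1 and 23 without CB 1, and it was 17 with DESeq2 against a log2 fold change of 0.2 and an s value under 0.005, by which 0.687% of all genes rose.

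**Figure D1:**
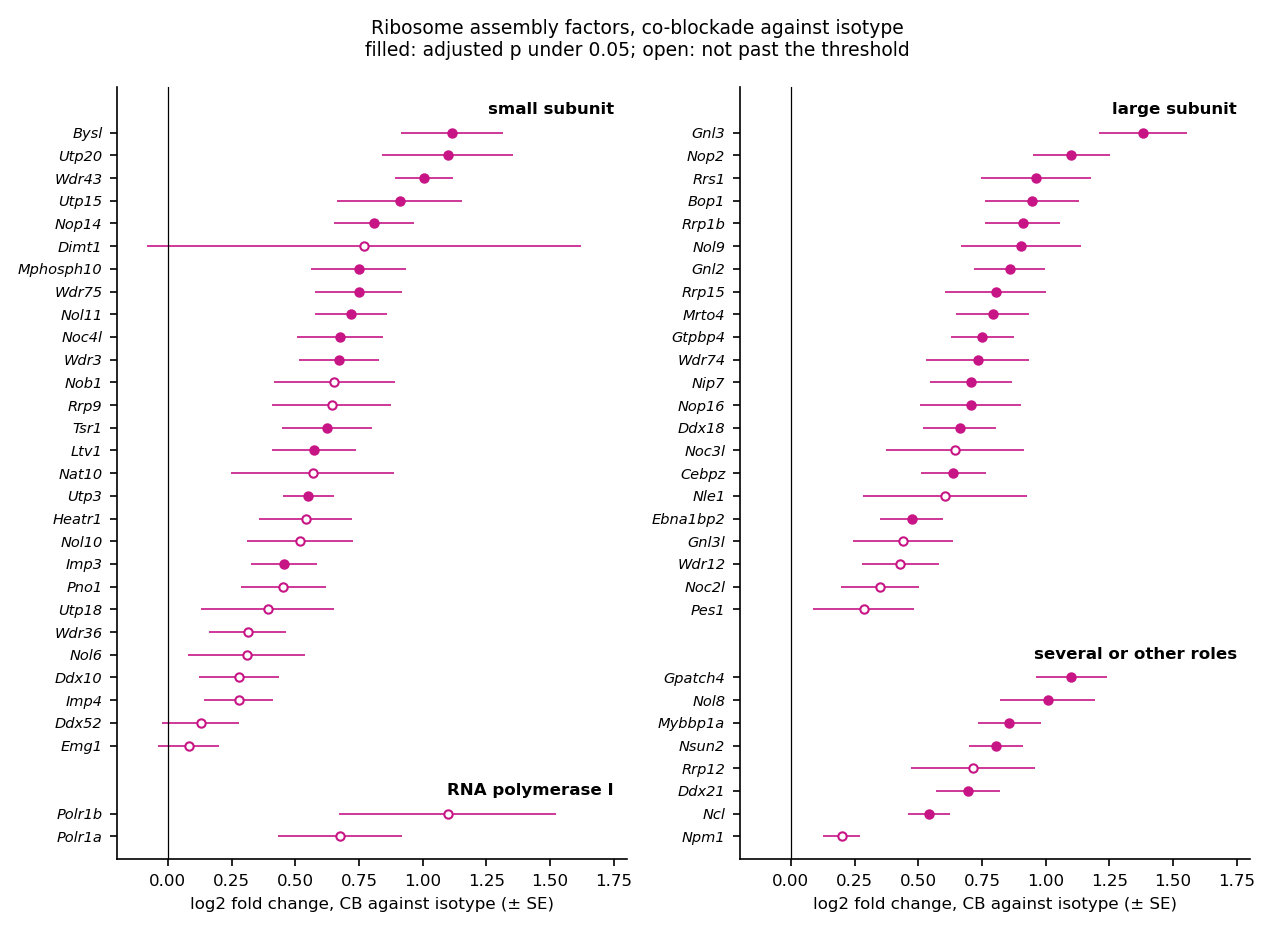
Log2 fold change of each of the 60 members in CB against isotype, with bars of 1 SE (3 mice per group), by role and sorted by size; filled points passed an adjusted p of 0.05 and open points did not. All points lie right of 0, from 0.08 for Emg1 to 1.38 for Gnl3, and the bar of Dimt1 is the widest.

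The 36 members that rose had between 7220 and 634548 reads over the 12 samples (median 16526), and the other 24 had between 762 and 370696 (median 10867). Dimt1, the 18S rRNA dimethylase, had the fewest reads and the widest error. It had 4.18, 2.28 and 1.43 CPM in the isotype samples and 7.07, 0.818 and 5.58 with CB, and its fold change of 0.77 ± 0.85 did not pass (adjusted p = 0.776). It also shares 1229 exon bases with Kif2a on the opposite strand, and whether counting used the strand is not given in the sources used here.

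Within the small-subunit list 14 of 28 members rose, with a median log2 fold change of 0.60. The count was 7 without isotype 1, 8 without isotype 2, 7 without CB 1 and 8 without CB 3. All 5 members of the tUTP complex, which primes processome assembly on the nascent transcript, had fold changes of at least 0.54, and 4 of them rose. Wdr43, a tUTP subunit, had 170.5, 177 and 210.2 CPM in the isotype samples, 219, 189 and 208 with anti-Lag3, 236, 207 and 217 with anti-PD-L1 and 386, 327 and 408 with CB. Its 3 CB samples lay above the 9 others, and the 3 other groups overlapped. The log2 fold change against isotype was 1.01 ± 0.11 (adjusted p = 3.73e-06). Utp15 of the same complex had 28.7, 13.7 and 25.3 CPM in the isotype samples and 43.9, 41.8 and 41.7 with CB, and rose by 0.91 ± 0.24 (adjusted p = 0.0286), a call lost with some samples left out (adjusted p from 0.0669 to 0.19 without CB 1, CB 2, CB 3 or isotype 2). Nol11 rose by 0.72 and Wdr75 by 0.75, the latter call lost with samples left out (adjusted p from 0.0542 to 0.0694 without CB 1, isotype 1 or isotype 2). Heatr1 did not pass (0.54 ± 0.18, adjusted p = 0.106). It passed in edgeR without the filter on low counts (adjusted p = 0.0259) and with the replicate number as a block (adjusted p = 0.0411).

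The fold changes of other processome factors were unequal. Utp20, a giant scaffold of the processome, had 15.3, 17.2 and 32.1 CPM in the isotype samples and 54.5, 41.0 and 43.0 with CB. Isotype 3 lay inside the anti-Lag3 range, and the fold change was 1.10 ± 0.26 (adjusted p = 0.0101; from 0.0677 to 0.0803 without CB 1, isotype 1 or isotype 2). Nop14, which holds the processome together, had 50.6, 55.5 and 48.9 CPM in the isotype samples and 89.3, 93.2 and 88.6 with CB and rose by 0.81 ± 0.16 (adjusted p = 0.00223). Mphosph10, which anchors the U3 snoRNP module with Imp3 and Imp4, had 35.3, 51.9 and 66.7 CPM in the isotype samples and 97.8, 80.3 and 80.3 with CB, and its fold change of 0.75 ± 0.19 passed (adjusted p = 0.0166) but depended on single samples (adjusted p from 0.0524 to 0.133 without CB 1, isotype 1 or isotype 2). Of its partners, Imp3 rose by 0.46 ± 0.13 (adjusted p = 0.0424; from 0.0537 to 0.248 without CB 1, CB 3, anti-Lag3 2, anti-Lag3 3, isotype 1 or isotype 3), whereas Imp4 had 102, 97.2 and 104 CPM in the isotype samples and 138, 130.1 and 99.1 with CB, and its fold change of 0.28 ± 0.14 did not pass (adjusted p = 0.336). Utp3, Noc4l and Wdr3 also rose, by 0.55, 0.67 and 0.67. Noc4l and Wdr3 lost the call with samples left out (Noc4l adjusted p from 0.0582 to 0.16 without CB 3, isotype 1 or isotype 3; Wdr3 adjusted p = 0.102 without CB 3).

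The 5 late pre-40S factors bring the small subunit out of the nucleus and complete the 18S end, and 3 of them rose. Bysl, which is needed for maturation of the 18S 3′ end, had 24.0, 22.0 and 35.7 CPM in the isotype samples, 47.7, 45.6 and 38.4 with anti-Lag3, 60.7, 51.1 and 53.2 with anti-PD-L1 and 49.0, 57.1 and 70.9 with CB. Samples of all blocking-antibody groups lay above the 3 isotype samples, and those of CB and anti-PD-L1 overlapped. Against isotype the fold change was 1.11 ± 0.20 (adjusted p = 0.00102). Bysl shares 361 exon bases with Ccnd3 on the opposite strand, a gene with 112767 reads. Ltv1, an export adaptor, had 40.6, 44.9 and 43.1 CPM in the isotype samples and 58.5, 69.1 and 63.6 with CB and a fold change of 0.57 ± 0.16 (adjusted p = 0.0429). Tsr1, a GTPase-like factor, had 37.7, 41.6 and 41.1 CPM in the isotype samples and 67.3, 61.1 and 57.4 with CB and a fold change of 0.63 ± 0.18 (adjusted p = 0.0387). It shares 1240 exon bases with Srr on the opposite strand, a gene with 679 reads. Neither call held when any 1 of the 6 samples compared was left out (Ltv1 adjusted p from 0.0686 to 0.152, Tsr1 from 0.074 to 0.162). The endonuclease Nob1 and its partner Pno1 had fold changes of 0.65 ± 0.24 and 0.45 ± 0.17 and did not pass (adjusted p = 0.136 and 0.143).

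Rrp9, Nol10, Utp18, Wdr36, Nol6 and Ddx10 had fold changes from 0.28 (Ddx10) to 0.64 (Rrp9) and did not pass, with adjusted p from 0.137 to 0.567. Rrp9 passed in edgeR without the filter on low counts (adjusted p = 0.0436). The smallest fold changes of the list were those of a pair of small-subunit genes. Emg1, an 18S pseudouridine methyltransferase, had 180.0, 226 and 206 CPM in the isotype samples, 243, 182 and 206 with anti-Lag3, 212, 216 and 239 with anti-PD-L1 and 241, 205 and 202 with CB. The 4 groups overlapped, and the fold change in CB against isotype was 0.08 ± 0.12 (adjusted p = 0.862). For Ddx52, an RNA helicase, it was 0.13 ± 0.15 (adjusted p = 0.799), with 102, 108 and 107 CPM in the CB samples inside the isotype range of 83.0 to 111 CPM. Neither of the 2 helicases (Ddx10 and Ddx52) nor the 3 18S modification enzymes (Emg1, Dimt1 and Nat10) passed. The acetyltransferase Nat10 had 21.9, 11.1 and 25.2 CPM in the isotype samples and 31.6, 27.3 and 27.5 with CB and a fold change of 0.57 ± 0.32 (adjusted p = 0.401).

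In the large-subunit list 16 of 22 members rose and the median log2 fold change was 0.72. Without isotype 1 or without CB 1 the count was 10. Per-mouse medians of this list in CB were 0.55 to 0.76, and those of the small-subunit list were 0.46 to 0.66, so the ranges of the lists overlapped. The difference between the lists was not tested.

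All 4 nucleolar GTPases have related domains and act on pre-60S particles, and 3 of them rose. Gnl3, known as nucleostemin and found in stem and activated cells, had 49.8, 37.1 and 54.6 CPM in the isotype samples, 59.9, 59.4 and 55.6 with anti-Lag3, 66.4, 46.6 and 77.1 with anti-PD-L1 and 126, 109 and 135 with CB. Its CB samples lay above the 9 others. The fold change of 1.38 ± 0.17 (adjusted p = 1.67e-05) was the highest of the 60 members. Gnl3 shares 15 exon bases with Pbrm1 on the opposite strand. Gtpbp4 had 111, 116 and 122 CPM in the isotype samples, 131, 108 and 123 with anti-Lag3, 145, 116 and 129.6 with anti-PD-L1 and 206, 175 and 205 with CB, again with no overlap between CB and the rest, and rose by 0.75 ± 0.12 (adjusted p = 0.000399). Gnl2 had 61.6, 70.3 and 77.0 CPM in the isotype samples, 107, 116 and 102 with anti-Lag3, 96.8, 113 and 89.7 with anti-PD-L1 and 108, 142 and 129 with CB. Its isotype samples were the lowest of the 12, and the CB range overlapped the ranges of both single antibodies. Gnl2 rose by 0.86 ± 0.14 (adjusted p = 0.000329), while Gnl3l had a fold change of 0.44 ± 0.20 (adjusted p = 0.278).

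Among the enzymes, Nop2, which methylates a cytosine of the 28S rRNA, had 41.9, 46.1 and 46.2 CPM in the isotype samples, 60.6, 48.7 and 46.9 with anti-Lag3, 57.4, 57.2 and 64.5 with anti-PD-L1 and 99.5, 99.6 and 88.6 with CB. All blocking-antibody samples lay above the isotype samples, and CB above the rest. The fold change in CB against isotype was 1.10 ± 0.15 (adjusted p = 4.73e-05). Ddx18, a helicase of the large-subunit pathway, had 69.2, 64.0 and 71.8 CPM in the isotype samples, 68.1, 58.7 and 54.5 with anti-Lag3, 63.6, 56.7 and 62.9 with anti-PD-L1 and 100.4, 100.5 and 123 with CB. The single-antibody means lay below the isotype mean, and all CB samples above the 9 others. It rose by 0.66 ± 0.14 (adjusted p = 0.00541), and missed the threshold without CB 3 (adjusted p = 0.063).

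The complexes of the pre-60S particle each held members that rose and members that did not pass. In the PeBoW complex, which is required for cleavage that yields the 28S and 5.8S RNAs, Bop1 had 43.6, 38.9 and 30.9 CPM in the isotype samples and 83.5, 52.7 and 82.6 with CB and rose by 0.95 ± 0.18 (adjusted p = 0.00229). Its partners Wdr12 and Pes1 had fold changes of 0.43 ± 0.15 and 0.29 ± 0.20 that did not pass (adjusted p = 0.119 and 0.518). Pes1 had 46.6, 67.8 and 42.9 CPM in the isotype samples and 65.3, 52.1 and 74.2 with CB, with overlapping groups. In the NOC complexes, Cebpz (the mammalian NOC1) had 104, 110.2 and 124 CPM in the isotype samples, 128, 118 and 114 with anti-Lag3, 101, 121 and 134 with anti-PD-L1 and 176, 157 and 194 with CB and rose by 0.64 ± 0.13 (adjusted p = 0.00296). Noc3l and Noc2l had fold changes of 0.64 ± 0.27 and 0.35 ± 0.15 and did not pass (adjusted p = 0.233 and 0.255).

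Rrs1, which helps load the 5S RNP, had 28.3, 30.3 and 39.2 CPM in the isotype samples and 74.2, 70.4 and 46.2 with CB and rose by 0.96 ± 0.22 (adjusted p = 0.00749; from 0.0528 to 0.0573 without CB 1 or isotype 1). Rrp1b, a nucleolar partner of protein phosphatase 1, had 49.8, 55.9 and 66.0 CPM in the isotype samples and 114, 97.9 and 110.2 with CB and rose by 0.91 ± 0.15 (adjusted p = 0.000359). Nol9, a polynucleotide kinase that acts on pre-rRNA ends, had 17.5, 22.4 and 23.5 CPM in the isotype samples and 49.2, 28.0 and 41.3 with CB and rose by 0.90 ± 0.24 (adjusted p = 0.0229; from 0.0566 to 0.174 without CB 1, CB 3, isotype 1 or isotype 2). These CB samples were all above the isotype samples. Of the 9 other pre-60S factors, Rrp1b and Nol9 among them, 8 rose, and Nle1 did not pass (0.60 ± 0.32, adjusted p = 0.384). Mrto4, Rrp15, Wdr74, Nip7, Nop16 and Ebna1bp2 rose by between 0.47 and 0.80. Of these 6, only the call of Mrto4 held with each of the 12 samples left out in turn. Rrp15 lost it with adjusted p from 0.0948 to 0.147 without CB 1 or isotype 3, Nip7 with adjusted p from 0.0644 to 0.093 without CB 3 or isotype 1, and Wdr74 with adjusted p from 0.0523 to 0.198 without CB 1, CB 3, isotype 1, isotype 2 or isotype 3. For Nop16 it was lost with adjusted p from 0.0511 to 0.222 without CB 1, CB 2, CB 3, isotype 1, isotype 2 or isotype 3, and for Ebna1bp2 with adjusted p from 0.0507 to 0.129 without CB 1, CB 2, isotype 1, isotype 2 or isotype 3.

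The RNA polymerase I subunits did not pass in any comparison of the main fit. In CB against isotype both had an unadjusted p under 0.05 (14.9% of all genes). Polr1a passed there in edgeR without the filter on low counts (0.68, adjusted p = 0.0418). Polr1b, which forms the catalytic core with Polr1a, had 8.05, 5.64 and 9.96 CPM in the isotype samples, 12.0, 8.12 and 9.35 with anti-Lag3, 4.01, 14.9 and 15.8 with anti-PD-L1 and 22.6, 10.8 and 17.3 with CB. Its CB samples lay above isotype, but the anti-PD-L1 samples overlapped both. The fold change of 1.10 ± 0.43 was among the largest, with the widest error after Dimt1 (adjusted p = 0.177). Polr1a, the largest subunit of the enzyme, had 30.8, 34.1 and 27.5 CPM in the isotype samples, 39.0, 32.1 and 28.8 with anti-Lag3, 39.5, 18.4 and 34.5 with anti-PD-L1 and 64.4, 42.0 and 41.4 with CB. The CB samples were above the 9 others, and the fold change was 0.68 ± 0.24 (adjusted p = 0.133). Among 18 further genes of the polymerase I machinery, 2 rose (1 without CB 3) and 0 fell, where 2.33% of all genes rose. Their median was 0.25 on the log2 scale. The 2 that rose were Rrn3, which recruits the polymerase to its promoter (0.84 ± 0.18, adjusted p = 0.005), and the subunit gene Polr1g (0.82 ± 0.18, adjusted p = 0.00569).

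Of the 8 members with several or other roles, 6 rose. Gpatch4, a G-patch protein of the nucleolus, had 74.8, 98.6 and 83.1 CPM in the isotype samples, 88.9, 108 and 115 with anti-Lag3, 118, 106 and 139 with anti-PD-L1 and 178, 176 and 196 with CB. Its CB samples lay above all others and its isotype samples below all anti-PD-L1 samples. It rose by 1.10 ± 0.14 (adjusted p = 1.66e-05). Nsun2, a cytosine methyltransferase of tRNAs and other RNAs, had 192, 199.6 and 185 CPM in the isotype samples, 257, 217 and 236 with anti-Lag3, 257, 219.6 and 239.8 with anti-PD-L1 and 367, 309 and 331 with CB. The isotype samples were the lowest of the 12, CB the highest, and the single antibodies overlapped in between. It rose by 0.80 ± 0.11 (adjusted p = 2.72e-05).

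Mybbp1a, which regulates polymerase I transcription and pre-rRNA processing, had 174, 135 and 163 CPM in the isotype samples and 304, 245 and 307 with CB and rose by 0.86 ± 0.12 (adjusted p = 9.52e-05). Nol8 had 57.6, 42.5 and 43.1 CPM in the isotype samples and 79.8, 99.1 and 109 with CB and rose by 1.01 ± 0.19 (adjusted p = 0.00153). Ddx21, a helicase that links polymerase I transcription with snoRNA-guided modification, had 303, 442 and 426 CPM in the isotype samples and 741, 534 and 621 with CB and rose by 0.69 ± 0.12 (adjusted p = 0.00107). In each of these the groups did not overlap. Rrp12, an export factor of both subunits, had 33.7, 26.3 and 27.2 CPM in the isotype samples and 48.8, 36.0 and 58.3 with CB and a fold change of 0.72 ± 0.24 (adjusted p = 0.108). It passed in edgeR without the filter on low counts (adjusted p = 0.0194) and with the replicate number as a block (adjusted p = 0.0353).

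Ncl and Npm1 encode the abundant nucleolar proteins nucleolin and nucleophosmin. Ncl had 2210.3, 2308 and 2286 CPM in the isotype samples, 2791, 2410.1 and 2526 with anti-Lag3, 3002, 2702 and 2574 with anti-PD-L1 and 3665, 2781 and 3454 with CB. All isotype samples were below the 9 others, CB 2 lay inside the single-antibody range, and the fold change in CB against isotype was 0.54 ± 0.08 (adjusted p = 0.000145). Npm1 had 1386, 1564 and 1573 CPM in the isotype samples, 1682, 1447 and 1609 with anti-Lag3, 1574, 1625 and 1510.2 with anti-PD-L1 and 1819, 1689 and 1685 with CB. Its CB samples were above the rest, by a small amount. The fold change of 0.20 ± 0.07 did not pass in edgeR (adjusted p = 0.149), while DESeq2 against 0 called Npm1 higher (adjusted p = 0.0442).

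**Figure D2:**
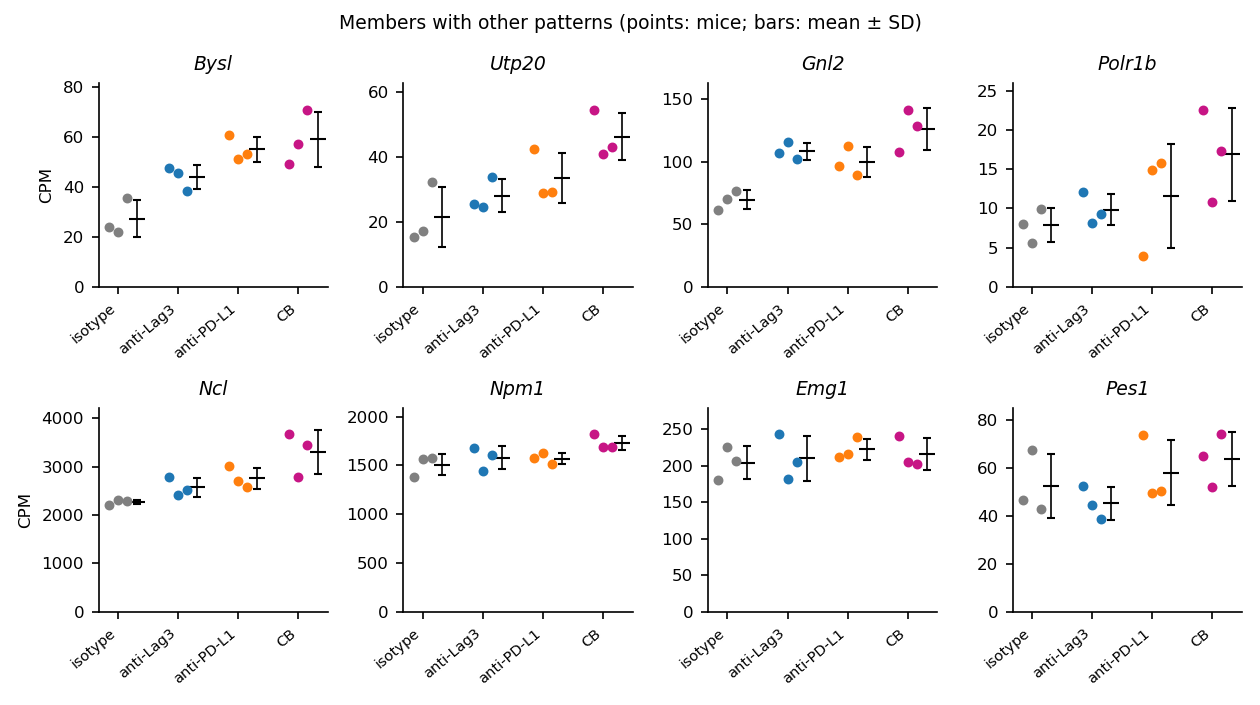
CPM of 8 members in each of the 12 mice, by group, with the mean and SD of 3 mice beside the points; each vertical axis starts at 0. Bysl and Gnl2 are lowest in isotype with overlap among the blocking-antibody groups, Ncl steps up with CB highest on average, and Npm1, Emg1 and Pes1, with log2 fold changes of 0.20, 0.08 and 0.29 in CB against isotype, did not pass.

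The next question was whether CB exceeded each antibody given alone. In CB against anti-PD-L1, 8 members rose and 0 fell, where 0.205% of all genes rose, and the median log2 fold change was 0.43. In CB against anti-Lag3, 13 rose and 0 fell, where 0.39% of all genes rose, and the median was 0.49. Every CB sample lay above every anti-PD-L1 sample for 32 members (6.94% of all genes) and above every anti-Lag3 sample for 38 (7.68%). The anti-PD-L1 count was 5 without anti-PD-L1 1, 1 without anti-PD-L1 2, 3 without CB 1 and 1 without CB 3. The anti-Lag3 count was 6 without anti-Lag3 2, 8 without anti-Lag3 3, 7 without CB 1 and 7 without CB 3. With an edgeR test against a log2 fold change of 0.2 the counts were 1 (0.00661% of all genes) and 6 (0.132%), and without the filter on low counts 15 (0.402%) and 20 (0.624%). The comparisons share their CB samples, so their counts are not independent.

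In all, 8 members rose with CB against each of the 3 other groups, namely Cebpz, Ddx18, Gnl3, Gpatch4, Gtpbp4, Nop2, Nsun2 and Wdr43, among 23 such genes of the 15138. Of these, 5 are large-subunit factors and 1, Wdr43, is a small-subunit factor. On GRCm38 they lie at chr17:78919006-78937066 (Cebpz, minus strand), chr1:121553835-121567989 (Ddx18, minus), chr14:31012433-31019152 (Gnl3, minus), chr3:88043108-88055993 (Gpatch4, plus), chr13:8966331-8996083 (Gtpbp4, minus), chr6:125131909-125144753 (Nop2, plus), chr13:69533746-69635780 (Nsun2, plus) and chr17:71615895-71659031 (Wdr43, plus). Wdr43 rose by 0.76 ± 0.11 (adjusted p = 0.00149) against anti-PD-L1 and by 0.86 ± 0.11 (adjusted p = 0.000126) against anti-Lag3, and it alone of the 8 passed against anti-PD-L1 with each of the 12 samples left out in turn. For Gnl3 the fold changes were 0.96 ± 0.17 (adjusted p = 0.0131) against anti-PD-L1 and 1.08 ± 0.17 (adjusted p = 0.00142) against anti-Lag3. The former did not pass with samples left out (adjusted p from 0.0923 to 0.111 without CB 3 or anti-PD-L1 2). Those of Ddx18 were 0.82 ± 0.14 (adjusted p = 0.0114) and 0.84 ± 0.14 (adjusted p = 0.00245), and the former also missed the threshold with samples left out (adjusted p from 0.0743 to 0.0971 without CB 3 or anti-PD-L1 2). Nop2 had 0.68 ± 0.15 (adjusted p = 0.04) and 0.88 ± 0.15 (adjusted p = 0.00245), the former lost with adjusted p from 0.0639 to 0.17 without CB 1, CB 2, CB 3, anti-PD-L1 1, anti-PD-L1 2 or anti-PD-L1 3.

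Against anti-PD-L1, Gtpbp4 rose by 0.59 ± 0.12 (adjusted p = 0.0299) and Nsun2 by 0.49 ± 0.10 (adjusted p = 0.0323). Both depended on single samples, Gtpbp4 with adjusted p from 0.0728 to 0.173 without CB 1, CB 3, anti-PD-L1 2 or anti-PD-L1 3 and Nsun2 with adjusted p from 0.0728 to 0.184 without CB 1, CB 3, anti-PD-L1 2 or anti-PD-L1 3. Gpatch4 and Cebpz were at the threshold, with 0.60 ± 0.14 (adjusted p = 0.0486) and 0.56 ± 0.13 (adjusted p = 0.0486), and each lost the call with samples left out (Gpatch4 adjusted p from 0.0554 to 0.244 without CB 1, CB 2, CB 3, anti-Lag3 2, anti-Lag3 3, anti-PD-L1 1, anti-PD-L1 2 or isotype 3; Cebpz adjusted p from 0.0534 to 0.301 without CB 1, CB 2, CB 3, anti-Lag3 2, anti-Lag3 3, anti-PD-L1 1, anti-PD-L1 2 or isotype 2). Against anti-Lag3, Gtpbp4 rose by 0.70 ± 0.12 (adjusted p = 0.00334), Gpatch4 by 0.82 ± 0.14 (adjusted p = 0.00204), Nsun2 by 0.50 ± 0.10 (adjusted p = 0.0159) and Cebpz by 0.55 ± 0.13 (adjusted p = 0.0346). Nsun2 and Cebpz lost this call with samples left out (Nsun2 adjusted p from 0.064 to 0.13 without CB 1, CB 3, anti-Lag3 2 or anti-Lag3 3; Cebpz adjusted p from 0.0646 to 0.238 without CB 1, CB 3, anti-Lag3 1, anti-Lag3 2 or anti-Lag3 3), and Gtpbp4 and Gpatch4 kept it in every such fit.

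**Figure D3:**
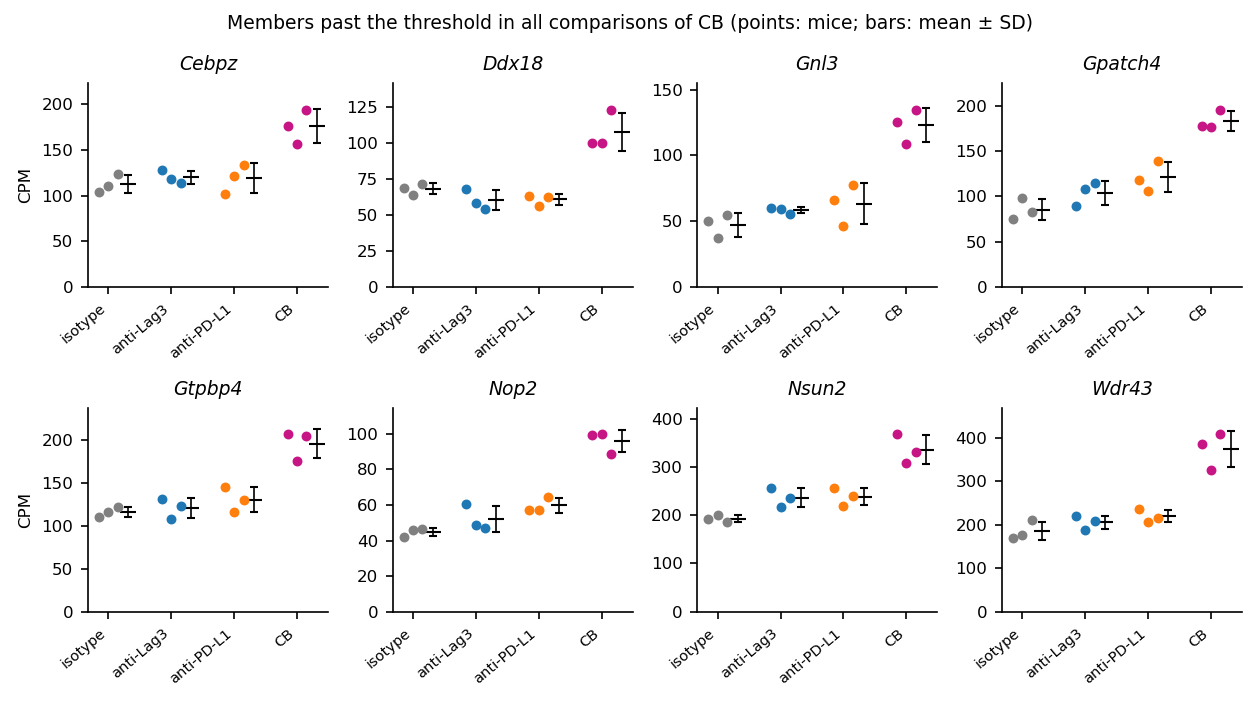
CPM of the 8 members that passed in CB against each of the other 3 groups, in each of the 12 mice, with the mean and SD of 3 mice beside the points; each vertical axis starts at 0. In all 8 panels the 3 CB points lie above the 9 other points.

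A further 5 members, of 34 such genes among the 15138, rose against isotype and anti-Lag3 but did not pass against anti-PD-L1. They were Ddx21, Mrto4, Mybbp1a, Ncl and Nol8, with fold changes of 0.41 ± 0.12, 0.48 ± 0.14, 0.46 ± 0.12, 0.26 ± 0.08 and 0.61 ± 0.19 against anti-PD-L1 and of 0.60 ± 0.12, 0.62 ± 0.14, 0.57 ± 0.12, 0.36 ± 0.08 and 0.78 ± 0.19 against anti-Lag3. Against anti-PD-L1, Ncl passed without CB 2 (adjusted p = 0.0318), Nol8 without anti-PD-L1 3 (adjusted p = 0.0408) and Mybbp1a in DESeq2 (adjusted p = 0.0370). None of these 5 calls against anti-Lag3 held with each sample left out in turn. For Ddx21 the call was lost with adjusted p from 0.0617 to 0.143 without CB 1, CB 3, anti-Lag3 2 or anti-Lag3 3, and for Mrto4 with adjusted p from 0.0732 to 0.196 without CB 1, CB 2, CB 3, anti-Lag3 1, anti-Lag3 2 or anti-Lag3 3. Mybbp1a lost it with adjusted p from 0.0577 to 0.157 without CB 1, CB 3, anti-Lag3 1 or anti-Lag3 2, Ncl with adjusted p from 0.16 to 0.223 without CB 1, CB 3, anti-Lag3 2 or anti-Lag3 3, and Nol8 with adjusted p from 0.107 to 0.25 without CB 2, CB 3, anti-Lag3 1, anti-Lag3 2 or anti-Lag3 3. The remaining 23, of 292 such genes among the 15138, rose against isotype alone in the main fit. Ltv1, Nol11, Nop14, Rrp15 and Rrs1 of these passed against anti-Lag3 in DESeq2 against 0, and Nol11 also against anti-PD-L1. Bysl, another of the 23, had a fold change of 0.10 ± 0.20 against anti-PD-L1 (adjusted p = 0.975).

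Each antibody alone was then compared with isotype. With anti-PD-L1, 0 members passed in edgeR (0.033% of all genes did), 24 had an unadjusted p under 0.05 (7.84% of all genes did, in either direction), and DESeq2 called 1 higher (0.205% of all genes). The median log2 fold change was 0.26. The anti-PD-L1 and isotype samples did not overlap in summed myeloid markers (higher with anti-PD-L1) or in CD8 T cell and NK cell markers (lower), and the part of these differences was not tested. With anti-Lag3, 0 members passed in edgeR (0% of all genes), 14 had an unadjusted p under 0.05 (5.21% of all genes), DESeq2 called 1 higher (0.033% of all genes), and the median was 0.19. The nearest to the threshold with anti-PD-L1 was Bysl (1.01 ± 0.20, adjusted p = 0.059), which DESeq2 called and which also passed in edgeR without isotype 3 (adjusted p = 0.00748) or without CB 1 (adjusted p = 0.0486). With anti-Lag3 DESeq2 called Gnl2, for which edgeR gave 0.64 ± 0.14 (adjusted p = 0.496). The isotype samples are shared by these comparisons. Every anti-PD-L1 sample lay above every isotype sample for 18 members (5.34% of all genes) and below for 1, Ddx18 (978 of the 15138 genes). Every anti-Lag3 sample lay above every isotype sample for 15 (5.25%).

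The single antibodies were also set against each other. In anti-PD-L1 against anti-Lag3, 0 members passed in edgeR (0% of all genes) and 0 in DESeq2 (0.00661% of all genes higher), 1 (Ltv1, higher with anti-PD-L1 by 0.42 ± 0.16) had an unadjusted p under 0.05 (4.69% of all genes), and the median log2 difference was 0.08 (from -0.37 to 0.44). Of the 2 Pol I subunits, Polr1b had a fold change of 0.24 ± 0.42 and Polr1a of -0.11 ± 0.24.

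**Figure D4:**
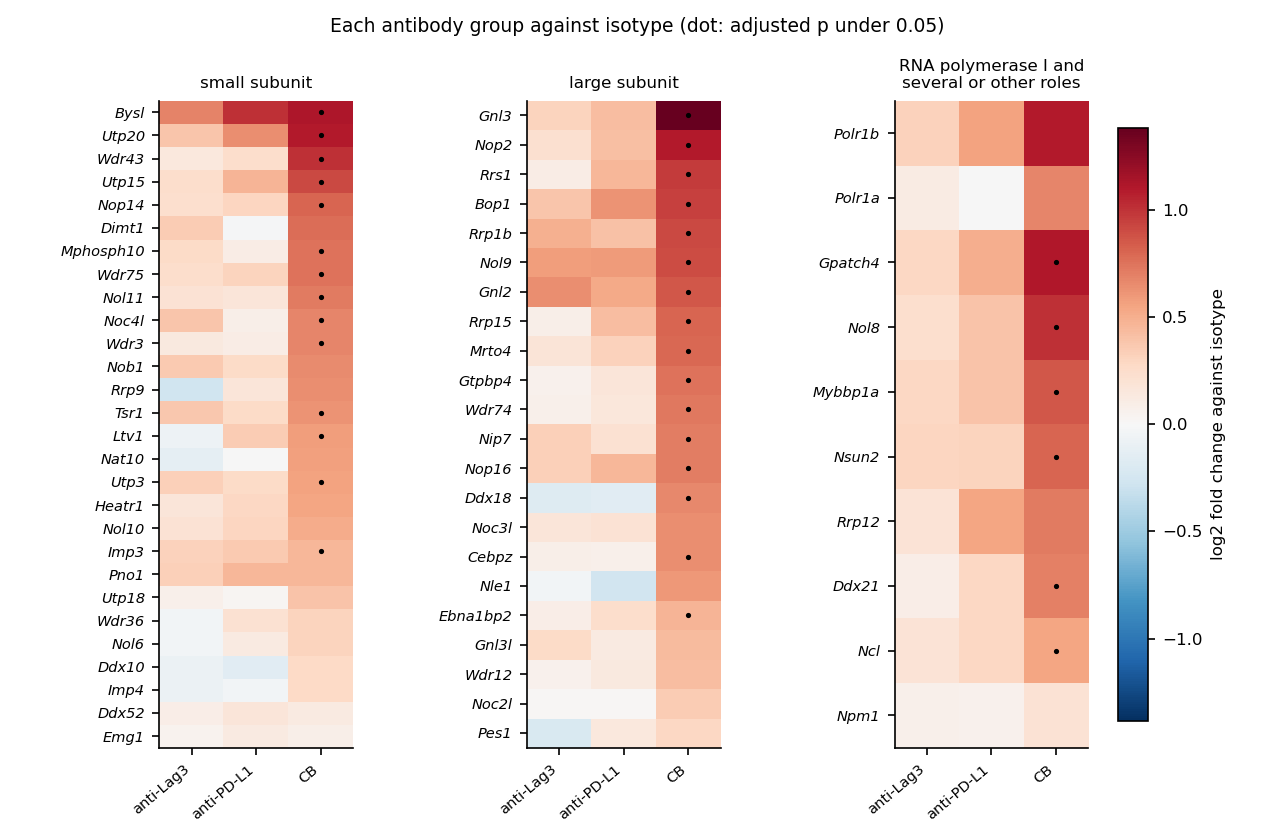
Log2 fold change against isotype with anti-Lag3, anti-PD-L1 and CB for the 60 members by role as colour (red above 0, blue below), with a dot where the adjusted p was under 0.05. The 36 dots are all in the CB columns, and pale or blue cells with a single antibody next to red ones with CB mark members such as Ddx18, Nle1 and Rrp9.

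Whether CB differed from the sum of the single-antibody changes was tested as the interaction, CB minus both single antibodies plus isotype on the log2 scale. No member passed in edgeR (0 of 60, and 0% of all genes), 10 had an unadjusted p under 0.05 (5.93% of all genes), and DESeq2 called 1 above 0 (0.00661% of all genes). The median of the members was 0.23. Ddx18 had the largest value, 1.00 ± 0.20 (adjusted p = 0.187), and was the member DESeq2 called. Nle1 followed with 0.90 ± 0.46 (adjusted p = 0.85), and Wdr43 had 0.62 ± 0.16 (adjusted p = 0.752). Bysl had the lowest value, -0.59 ± 0.28 (adjusted p = 0.833).

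The order of the groups was alike over most members. The mean was highest in CB for 57 of 60 members (28.5% of all genes; the exceptions were Ddx52, Emg1 and Pno1), lowest in isotype for 48 (29.9%), and both for 45 (14.1%). Means ran in the order isotype, anti-Lag3, anti-PD-L1, CB for 30 members and with the single antibodies exchanged for 15. The shares of all genes with either order were not counted. In each mouse the median log2 ratio of the 60 members to the isotype mean, taken with 1 CPM added, was -0.03 to 0.04 with isotype, 0.07 to 0.25 with anti-Lag3, 0.23 to 0.33 with anti-PD-L1 and 0.49 to 0.71 with CB. The ranges of CB and isotype did not overlap with any other, and those of the single antibodies overlapped. CB 2 was the lowest of the CB samples. The summed erythroid and platelet markers ran the other way, at 241 to 449 CPM with isotype, 213 to 287 with anti-Lag3, 170 to 217 with anti-PD-L1 and 150 to 198 with CB.

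**Figure D5:**
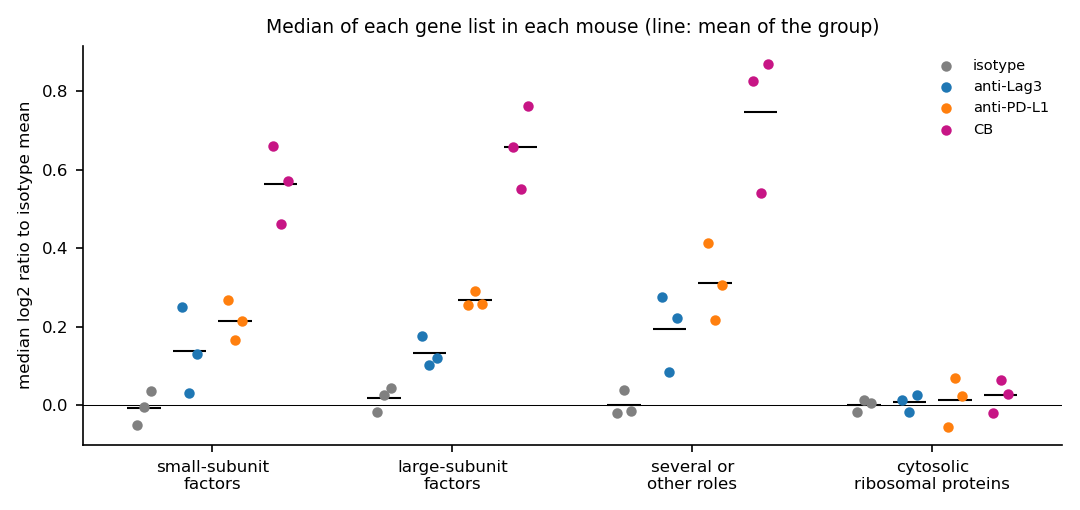
Median log2 ratio to the isotype mean of each gene list in each mouse (points) and the mean of each group (line), for small-subunit factors, large-subunit factors, members with several or other roles and cytosolic ribosomal proteins. CB points of the large-subunit factors lie between 0.55 and 0.76, and those of the ribosomal proteins between -0.02 and 0.06.

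Genes of the same pathway outside the list were measured as well, in lists that were also chosen with earlier results of these data known. Among all genes tested 2.33% rose with CB against isotype. Of 31 further small-subunit factors 8 rose with CB against isotype and 0 fell (median log2 fold change 0.50). DESeq2 called 13 of them higher (3.06% of all genes), and edgeR 5 without CB 1 and 5 without isotype 3. Of those that rose the largest changes were in Rbm19 (1.40 ± 0.31, adjusted p = 0.00653), Pwp2 (0.93 ± 0.26, adjusted p = 0.0401) and Esf1 (0.92 ± 0.14, adjusted p = 0.000145). Of 36 further large-subunit factors 14 rose and 0 fell (median 0.55), and the count was 7 without CB 1 and 9 without isotype 1. Of those that rose the largest changes were in Grwd1 (1.36 ± 0.20, adjusted p = 9.62e-05), Ppan (1.29 ± 0.25, adjusted p = 0.00228) and Ftsj3 (0.85 ± 0.17, adjusted p = 0.00281). The 79 cytosolic ribosomal protein genes, the structural parts of the ribosome, had a median of 0.04, and 0 passed in edgeR, with 11 at an unadjusted p under 0.05 (14.9% of all genes) and 2 called higher by DESeq2 (3.06% of all genes). Both counts are near the shares over all genes. Their per-mouse medians with CB were -0.02 to 0.06, against 0.49 to 0.71 for the 60 assembly factors.

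Promoter windows were read to see what the members have in common besides their values. RefSeq windows on GRCm38.p6, from 250 bases before to 50 bases after the start, were found for 50 of 60 members (not for Gpatch4, Npm1, Gnl3l, Bop1, Gnl2, Wdr36, Cebpz, Rrp12, Nol6 and Rrs1). The letters CACGTG, an E-box that reads the same on both strands and to which Myc-family and other proteins bind, were in windows of 12 of 50 members (24%). They were in 11.7% of the 9883 genes tested that had a window and in 8.09% of all 27025 genes with one. Among members that rose with CB against isotype 7 of 31 had the motif (22.6%), and among the others 5 of 19 (26.3%). It was in 8 of 26 small-subunit factors (30.8%), 3 of 17 large-subunit factors (17.6%) and 6 of 58 ribosomal protein genes (10.3%). The motif CCGGAAG, searched on both strands and typical of ETS-factor sites, was in 18 of 50 members (36%) and in 20.9% of genes tested. It was also in 24 of 58 ribosomal protein genes (41.4%), so it was not particular to the members. Among members that rose 11 of 31 had it (35.5%), and among the others 7 of 19 (36.8%). These matches are counts of letters and were not tested. The 7 windows of members that rose are shown on the strand of the gene, with the E-box in capitals and up to 12 bases on either side, to place it at the start of genes described above:
Nop2: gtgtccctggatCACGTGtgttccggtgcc
Wdr43: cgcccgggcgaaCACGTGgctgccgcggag
Mybbp1a: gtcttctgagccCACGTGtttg
Utp20: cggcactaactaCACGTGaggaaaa
Nol11: cttgagcgttcgCACGTGgtctagactcca
Ltv1: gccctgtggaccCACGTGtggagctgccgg
Tsr1: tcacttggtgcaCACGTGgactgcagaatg

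On GRCm38.p6 these lie at chr6:125131811-125131840 on the plus strand, chr17:71616220-71616249 (plus), chr11:72441355-72441376 (plus), chr10:88826765-88826789 (minus), chr11:107189407-107189436 (minus), chr10:13193092-13193121 (minus) and chr11:74898092-74898121 (plus). The E-box begins 60 bases before the RefSeq start site in Nop2 and 43 bases before it in Nol11, and between 17 and 40 bases after it in the other 5. Nop2 and Wdr43 are the 2 of these that also rose against both single antibodies.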

How the data were processed

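RNA of sorted splenic responders was sequenced as 3′ mRNA libraries amplified by PCR without molecular identifiers. Per the submitters' processing notes, cutadapt 1.18, STAR 2.6.1a, GRCm38 and featureCounts 1.6.4 were used, with DESeq2 in R 4.0. The authors deposited raw counts per gene, which were analysed here, and a table of DESeq2 rlog values, not used here. The annotation release and the strand setting of the counting are not given in the sources used here. All columns of the count table belong to the 12 samples, so 0 were left unused. The 114 spike-in transcripts took 0.719 to 1.29% of reads and were left out of library sizes and tests. Totals were 16449370 to 22151025 reads on genes. The SE of a fold change holds both counting error and spread between mice, which were not separated.

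Of the 56691 genes, 52073 were given a symbol and coordinates by GENCODE vM21 (GRCm38). Genes with at least 30 reads over 12 samples were fitted with edgeR 4.0.16 (limma 3.58.1, R 4.3.3): TMM normalization, 1 fit of 4 group means to all samples, quasi-likelihood tests, prior count 0.125, Benjamini-Hochberg adjustment over 15138 genes, threshold 0.05. The SE is the absolute log2 fold change divided by the square root of F. The 7 comparisons were all pairs of groups and the interaction. No library was a copy of another. The steps were tested on simulated data. Figures and tables were made with Python 3.11.15, pandas 2.3.3 and matplotlib 3.10.9.

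Alternatives were DESeq2 1.42.0 (against 0, and against 0.2 with an ashr 2.2.63 s value under 0.005, the study's criteria), edgeR against 0.2, DESeq2 size factors in edgeR, no filter, filterByExpr, a replicate block, a fit of each pair of groups by itself, and leaving out each sample.

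The members and gene lists were chosen with earlier results of these data known. Members named with values were the 6 with the largest fold changes among those that rose and the 3 lowest in each subunit list, both polymerase I subunits, all members of several or other roles, members of the GTPase, PeBoW, NOC and late pre-40S groups, members past the threshold in all comparisons of CB, and any past it with a single antibody or in the interaction. Other members named were added to account for all 60. Of other pathway genes, the 3 that passed with the largest changes in each list were named (2 in the polymerase I list, where only 2 passed). Cd4, Cd3e and the marker genes were chosen after their values were seen.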

Additional observations from a re-analysis of the deposited data

How the results depend on the processing

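Leaving out each sample in turn gave between 23 and 36 members risen in CB against isotype, between 1 and 8 against anti-PD-L1, between 6 and 15 against anti-Lag3, and 0 to 1 in anti-PD-L1 against isotype. With a sample left out, the median log2 fold change of the members was 0.61 to 0.77 for CB against isotype and 0.35 to 0.48 for CB against anti-PD-L1. Of the 36 calls against isotype 19 held in all 12 such fits and 17 under every alternative as well (Bop1, Bysl, Ddx21, Gnl2, Gnl3, Gpatch4, Gtpbp4, Mrto4, Mybbp1a, Ncl, Nol8, Nop14, Nop2, Nsun2, Rrp1b, Utp3 and Wdr43). Of the 8 calls against anti-PD-L1 1 held (Wdr43), and of the 13 against anti-Lag3 6 held.

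Counts follow for CB against isotype, anti-PD-L1 and anti-Lag3 in that order, with the percent of all genes called higher in brackets. DESeq2 against 0.2 with an s value called 17, 2 and 6 members (0.687%, 0.0396% and 0.126%). With edgeR against 0.2 they were 26, 1 and 6 (1.41%, 0.00661% and 0.132%). DESeq2 against 0 called 37, 10 and 19 (3.06%, 0.575% and 0.958%). No filter on low counts gave 40, 15 and 20 (2.12%, 0.402% and 0.624%). A fit of only the groups compared gave 35, 1 and 13. DESeq2 against 0 and no filter each called 1 member in anti-PD-L1 against isotype (Bysl), in anti-Lag3 against isotype (Gnl2) and in the interaction (Ddx18). In that order, DESeq2 against 0 called 0.205%, 0.033% and 0.00661% of all genes higher. Without the filter the shares were 0.102%, 0.0532% and 0.0145%. DESeq2 size factors in edgeR (36, 6 and 13) and filterByExpr (36, 8 and 13) stayed within 1.5 times each count. The shares of all genes were not counted for these fits or for the fit of only the groups compared. The cause of these differences was not tested. Over the whole table, genes called higher in CB against isotype numbered 353 in edgeR and 104 in DESeq2 against 0.2.

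Samples share replicate numbers across groups, but nothing in the labels says that a number marks a litter, batch or day. Per the study's methods mice were sorted in batches of 4, and which samples shared a sort is not given in the sources used here. Deviations from the group means correlated between -0.06 and 0.12 for the 18 pairs with the same number (2 over 0.1) and between -0.13 and 0.07 for the 36 other pairs, over 10448 genes, and 10 of 12 samples correlated best with a sample of their own number. The median correlation was 0.06 for pairs with the same number and -0.01 for the others. Among the pairs of number 2, anti-Lag3 2 with CB 2 was at 0.09 and the rest ran from -0.06 to -0.01. In the study's principal component analysis, the second component largely reflected sort batches. Whether the numbers follow these batches is not given, and for that reason they were not taken as pairs in the main fit. With the replicate block 38, 13 and 18 members rose in CB against isotype, anti-PD-L1 and anti-Lag3. Of all genes 2.97%, 0.469% and 0.746% rose in this fit, against 2.33%, 0.205% and 0.39% in the main fit. With the block 1 member each rose in anti-PD-L1 (Bysl, 0.0859% of all genes) and anti-Lag3 (Gnl2, 0.0462%) against isotype. Calls gained against anti-PD-L1 included Mybbp1a (edgeR adjusted p = 0.0217) and Ncl (0.0360).

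With a sample left out, the fold change of Emg1 in CB against isotype ran from -0.00359 (without isotype 1; also below 0 without CB 1) to 0.16 (without isotype 2). Members with few reads such as Dimt1, Nle1, Polr1b and Noc3l had an SE of 0.27 or more on the log2 scale. The parts of depth and of spread between mice in these SE were not tested.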
